A study of Mus musculus with 6 samples.

Results

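The cathepsins described here are 10 genes for lysosomal proteases, Ctsa, Ctsb, Ctsc, Ctsd, Ctsf, Ctsh, Ctsk, Ctsl, Ctss and Ctsz, measured in pressure-loaded mouse hearts. They were taken as every probe set annotated to a single symbol among these names, which gave 22 probe sets of the 38195 tested and 10 genes of 18029. The samples were 3 hearts of Tmbim1 KO mice and 3 hearts of Flox wild type mice. All were of C57BL/6 background, given as 8 weeks old, and shared aortic banding (spelled binding in the labels), with hearts taken after 2 weeks of it. The sources used here do not give how the knockout was made, in which cells the gene was lost, or if littermates were used. Hearts without banding were not analysed here, so each value is a difference between genotypes within banded hearts.

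Cathepsins are made as inactive precursors, carried to endosomes and lysosomes largely by mannose 6-phosphate receptors, and activated there as the compartment acidifies. Most are cysteine proteases of the papain fold, held in check by cystatins, while cathepsin D is an aspartic and cathepsin A a serine protease. In the loaded heart they take part in protein turnover in cardiomyocytes, and those released by macrophages and fibroblasts can cut collagen and elastin of the matrix. TMBIM1 is itself a membrane protein of endosomes and lysosomes.

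Each sample had 1 Affymetrix array. The series' design text calls the 3 samples of a genotype biological samples. Values are log2 signals after RMA, a procedure that subtracts background, equalizes the arrays' distributions and combines the probes of a probe set. Differences are Tmbim1 KO minus Flox wild type on that log2 scale, so a difference of 1 is a doubling of signal, and adjusted p-values come from limma over all probe sets with a threshold of 0.05. The main probe set of a gene is the one with the highest mean signal over the 6 arrays. Counts and medians of gene lists, and values of genes outside the family, are from main probe sets unless another is named. Tmbim1 itself read 7.53, 7.49 and 7.56 in Tmbim1 KO hearts, against 8.58, 8.38 and 8.33 in Flox wild type hearts. It was at -0.91 (SE 0.10, limma adjusted p = 0.00579). The targeted gene was thus lower in every Tmbim1 KO heart, although the position of its probes relative to the deletion is not known. All 11 cardiomyocyte markers were measured above the lower quartile, with Ryr2 averaging 9.93 in Tmbim1 KO and 10.34 in Flox wild type hearts. Summed linear signals over 6 atrial markers were 34558, 12833 and 10586 in Tmbim1 KO hearts, against 6634, 6593 and 3766 in Flox wild type hearts. By this sum every Tmbim1 KO heart was above every Flox wild type heart, in the direction of Ctsk, and Tmbim1 KO replicate 1 was highest. Taken singly, the groups overlapped in 5 of the 6 atrial markers. Over 12 fibroblast markers, Flox wild type replicate 3 stood apart with 3388, against 7110 to 9852 on the other arrays.

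One gene of the family, Ctsk, rose in Tmbim1 KO hearts, and the other 9 did not pass the test at any probe set. Ctsk encodes cathepsin K, a protease that cuts triple-helical collagen and is best known from bone-resorbing osteoclasts. Its single probe set, 1450652_at, read 7.89, 8.05 and 7.91 in Tmbim1 KO hearts, against 6.83, 6.74 and 6.28 in Flox wild type hearts. The groups were separated by 1.06 log2 units, the distance from the lowest Tmbim1 KO heart to the highest Flox wild type heart. Means were 7.95 ± 0.09 in Tmbim1 KO and 6.62 ± 0.30 in Flox wild type hearts (SD, n = 3 each). The difference of 1.33 (SE 0.14, 95% interval 1.01 to 1.65, limma adjusted p = 0.00500) corresponds to 2.52-fold higher signal, with an interval of 2.02 to 3.15. By unadjusted p-value this probe set ranked 25th among the 38195. Across all probe sets 0.422% passed the threshold, 0.238% as higher and 0.183% as lower in Tmbim1 KO hearts. In the family it was 1 of 22 as higher and 0 as lower. At main probe sets it was 1 of 10 as higher and 0 as lower, against 0.322% and 0.227% of all genes.

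**Figure D1:**
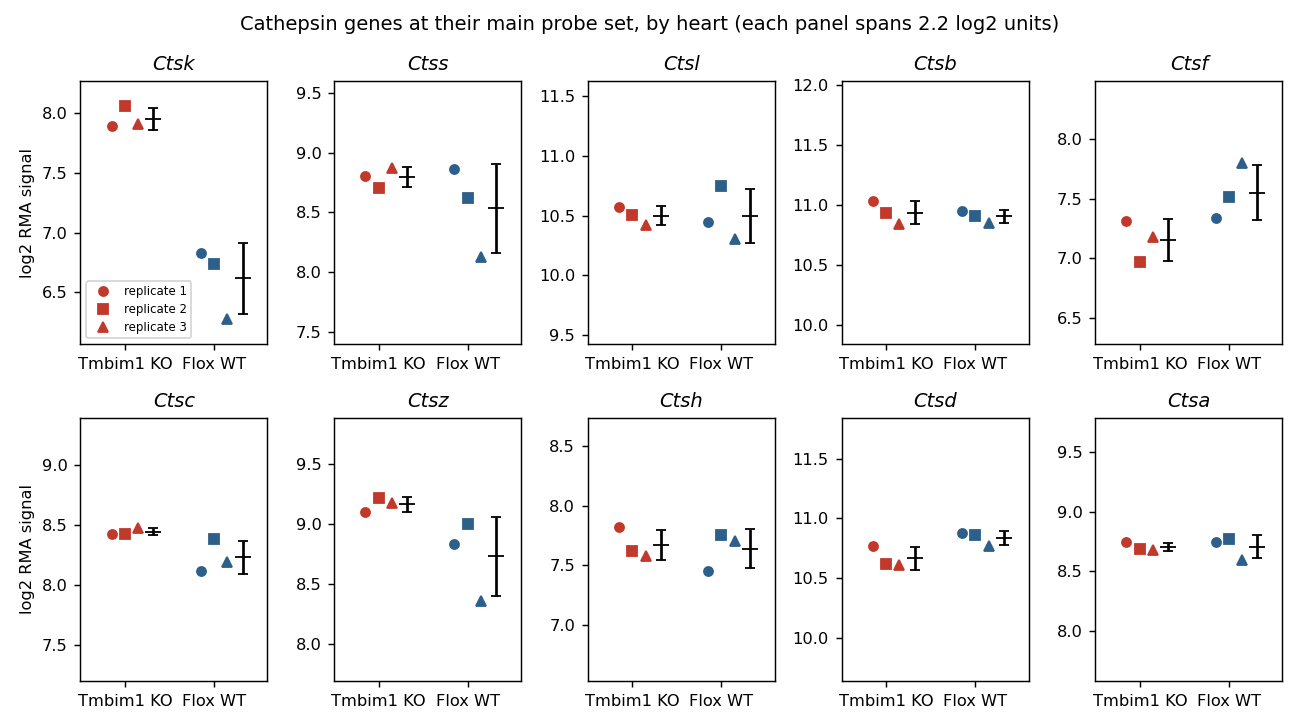
Log2 RMA signal of the 10 cathepsin genes at their main probe set, 1 panel a gene, with Tmbim1 KO hearts in red on the left and Flox wild type hearts in blue on the right; symbols mark the replicates and black bars the mean and SD (n = 3), and every panel spans the same number of log2 units. The Ctsk groups are 1.06 apart, while the groups of Ctsa, Ctsb, Ctsd, Ctsh, Ctsl and Ctss overlap.

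In whole hearts, more RNA per cell cannot be told apart from more of the cells that express a gene. Medians of fibroblast and macrophage markers were positive, the direction of Ctsk, without any of the markers passing the test. Fibroblast markers passed by limma in 0 of 12 genes, with 4 at an unadjusted p under 0.05, 3 of them higher, and a median difference of 0.33, and their summed linear signal ran from 7724 to 9852 in Tmbim1 KO hearts and from 3388 to 7715 in Flox wild type hearts. Macrophage and monocyte markers passed by limma in 0 of 19, with 8 at an unadjusted p under 0.05, all higher, where 11.5% of all genes were at that level. They had a median of 0.25 and summed signals of 4401 to 4849 in Tmbim1 KO and 3247 to 4253 in Flox wild type hearts. No marker of either list was below the lower quartile on all 6 arrays. Over all 18029 main probe sets the median difference was -0.00 (-0.00203). The part of these cell types, and of the atrial signal, in the Ctsk difference was not tested. Without Flox wild type replicate 3, the array with the low fibroblast signal, the Ctsk difference was 1.16 (SE 0.11, adjusted p = 0.00542), the fibroblast median was 0.14 and the macrophage median 0.15. Without that array and Tmbim1 KO replicate 1 together, the medians were 0.12 for fibroblasts and 0.10 for macrophages (0.0993). Without Tmbim1 KO replicate 1, the array with the highest atrial signal, the Ctsk difference was 1.36 (SE 0.17, adjusted p = 0.0238).

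**Figure D2:**
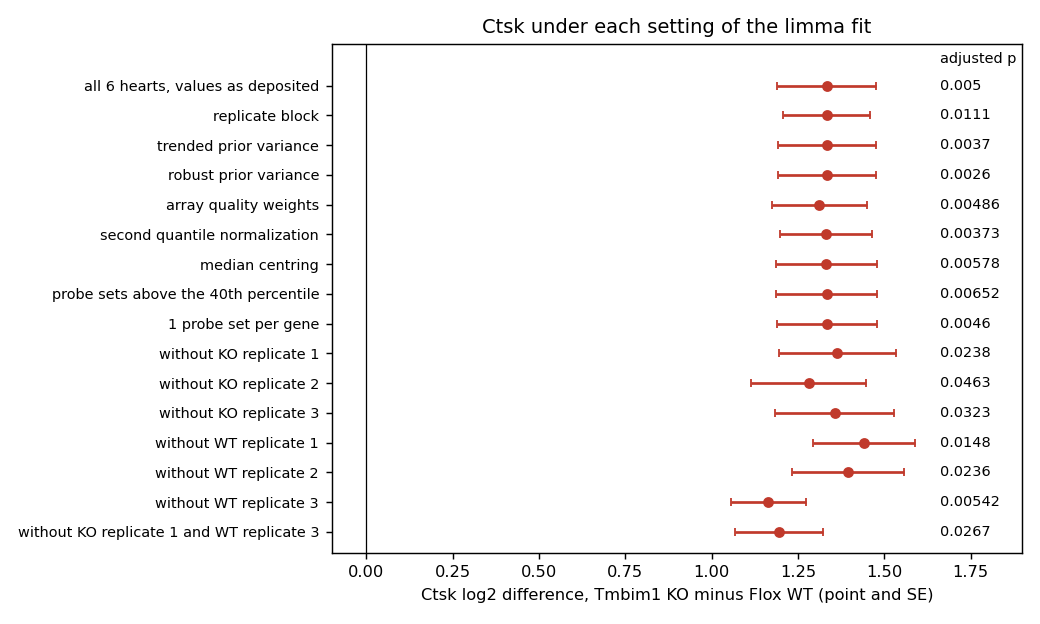
Log2 difference of Ctsk, Tmbim1 KO minus Flox wild type, with its SE, under each setting of the limma fit, and the adjusted p-value at the right. The difference stays between 1.16 and 1.44, and the highest adjusted p is 0.0463, without Tmbim1 KO replicate 2.

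Ctsk was also set against every other member within each array, a comparison chosen after its value was seen and one that largely restates its difference. The log2 signal of Ctsk minus that of Ctss, the cathepsin of antigen-presenting cells, was -0.92, -0.65 and -0.97 in Tmbim1 KO hearts, against -2.03, -1.88 and -1.85 in Flox wild type hearts. This ratio differed by 1.07 between genotypes, and for all 9 other members the ratio in every Tmbim1 KO heart lay above that in every Flox wild type heart. The shifts ran from 0.90 against Ctsz to 1.73 against Ctsf. An exact two-sided permutation test gave p = 0.1 for each of these 9 ratios, the smallest value that 3 against 3 hearts allow, so this test cannot reach 0.05 here.

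Ctsk and Ctss are next to each other in the gene order of mouse chromosome 3. Of the 6 measured genes nearest to Ctsk in that order, 3 on each side, 0 passed by limma and 0 had an unadjusted p under 0.05. Arnt, a partner of hypoxia and dioxin-responsive transcription factors and the nearest measured gene on the other side, was at 0.02 (SE 0.12), Setdb1, a histone methyltransferase gene, at 0.00 (0.000692, SE 0.09) and Golph3l, a Golgi protein gene, at 0.12 (SE 0.11). The neighbours Gm4349 and Hormad1, which lay below the lower quartile of each array, were at -0.02 and 0.03. These neighbours were looked up after the Ctsk value was seen.

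The promoters of the neighbouring pair and of the aspartic protease gene Ctsd are shown to compare a member that rose with others that did not pass. Each window holds 250 bases before and 50 after the RefSeq start in GRCm38.p6, printed 5′ to 3′ on the gene's strand. Capitals mark matches, on either strand, to the E-box CACGTG, the core of the element bound by TFEB and its relatives at lysosomal genes, to the M-box TCATGTG bound by MITF, to GAGGAAG, a form of the site of the myeloid factor PU.1, or to TATAAA. The AP-1 site TGACTCA was searched too and was found in none of the family's windows.
Ctsk promoter (chr3:95498960-95499259, plus strand): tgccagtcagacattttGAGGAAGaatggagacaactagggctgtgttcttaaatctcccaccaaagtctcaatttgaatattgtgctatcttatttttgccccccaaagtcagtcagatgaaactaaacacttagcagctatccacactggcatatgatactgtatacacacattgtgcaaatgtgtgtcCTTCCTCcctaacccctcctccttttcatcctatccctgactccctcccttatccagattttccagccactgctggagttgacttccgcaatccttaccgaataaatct
Ctss promoter (chr3:95526536-95526835, plus strand): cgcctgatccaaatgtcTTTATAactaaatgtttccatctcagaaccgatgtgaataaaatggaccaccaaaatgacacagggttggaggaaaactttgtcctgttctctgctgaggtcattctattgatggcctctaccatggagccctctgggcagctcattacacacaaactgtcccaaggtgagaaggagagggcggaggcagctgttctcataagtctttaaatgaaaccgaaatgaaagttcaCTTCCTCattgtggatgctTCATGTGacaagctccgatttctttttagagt
Ctsd promoter (chr7:142387778-142388077, minus strand): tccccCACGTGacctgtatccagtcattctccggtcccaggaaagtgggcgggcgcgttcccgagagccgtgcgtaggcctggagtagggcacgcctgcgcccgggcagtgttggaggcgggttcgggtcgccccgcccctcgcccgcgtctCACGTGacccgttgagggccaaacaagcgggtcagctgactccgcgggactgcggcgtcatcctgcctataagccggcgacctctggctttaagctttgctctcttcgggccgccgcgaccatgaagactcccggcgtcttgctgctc

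Counted from the gene start, the Ctsk window held 2 matches to GAGGAAG, beginning at -233 and -59, with no E-box and no M-box. Ctss had an M-box beginning at 18, a GAGGAAG match at -1 and TATAAA at -233, and Ctsd had 2 E-boxes, at -245 and -98. Elsewhere in the family, GAGGAAG was found in Ctsc and the M-box in Ctsa. Of all 32851 windows of this length, 7.15% held the E-box, 3.77% the M-box, 13.6% GAGGAAG, 13.6% TATAAA and 5.20% the AP-1 letters. The windows of Ctsk and Ctss were poor in G and C, at 43.7% and 44.0%, with 2 and 5 CpG dinucleotides, where all windows had a median of 52.7% and 7. Those of the other 6 members with a window were richer, up to 67.3% in Ctsd, which had 33 CpG.

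Windows were found for 8 members, Ctsb and Ctsh being the others, and Ctsa had a pair of start sites. The E-box was present in 4 members, Ctsa, Ctsd, Ctsf and Ctsl, and not in the windows of Ctsc, Ctsk, Ctss and Ctsz. The Ctsa windows differed, since that at chr2:164833523-164833822 held the E-box and that at chr2:164832622-164832921 did not. At their main probe sets, the 4 with an E-box had differences of -0.00 (Ctsa, -0.00203), -0.17 (Ctsd), -0.40 (Ctsf) and -0.00 (Ctsl, -0.000663). The 4 without it had differences of 0.21 (Ctsc), 1.33 (Ctsk), 0.26 (Ctss) and 0.44 (Ctsz). These are descriptions of letters and values, only Ctsk passed the limma threshold, and no test was made of the division.

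Cathepsin S, an elastin-cutting protease that stays active at neutral pH, did not pass. Ctss read 8.81, 8.71 and 8.87 in Tmbim1 KO hearts, against 8.86, 8.62 and 8.13 in Flox wild type hearts. The groups overlapped, since Flox wild type replicate 1 lay above 2 of the Tmbim1 KO hearts, and the difference was 0.26 (SE 0.17, 95% interval -0.11 to 0.63, adjusted p = 0.661). Without Flox wild type replicate 3 the difference was 0.06 (SE 0.12, adjusted p = 0.946), and without Flox wild type replicate 1 it was 0.42 (SE 0.15, adjusted p = 0.368).

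Cathepsin L, an abundant lysosomal endopeptidase, had group means that nearly coincided. At its main probe set, 1451310_a_at, Ctsl read 10.57, 10.51 and 10.42 in Tmbim1 KO hearts, against 10.45, 10.75 and 10.30 in Flox wild type hearts. The Tmbim1 KO values lay inside the Flox wild type range, and the 95% interval of the difference was -0.28 to 0.28, so that changes beyond 1.21-fold in either direction lie outside it. A second probe set, 1457724_at, was at -0.04 (SE 0.12, adjusted p = 0.961) with overlapping groups.

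Cathepsin B cuts inside proteins and also trims dipeptides from their ends, and its gene had 5 probe sets, none of which passed. At the main one, 1417490_at, Ctsb read 11.03, 10.94 and 10.84 in Tmbim1 KO hearts, against 10.95, 10.91 and 10.85 in Flox wild type hearts, with an interval of -0.18 to 0.25. The other probe sets were at 0.08 for 1448732_at, -0.09 for 1417492_at, -0.02 for 1417491_at and 0.27 for 1444987_at. The last read 4.61, 4.62 and 4.46 in Tmbim1 KO hearts, against 4.31, 4.12 and 4.46 in Flox wild type hearts. Its groups were separated by 0.0044 log2 units and it had an unadjusted p of 0.0372 (limma adjusted p = 0.427), whereas 1417492_at was separated the other way by 0.02. The probe sets of Ctsb therefore disagreed in sign.

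Cathepsin F, a cysteine protease with a cystatin-like stretch in its precursor, was the one member whose main probe set was lower in every Tmbim1 KO heart. The probe set 1451019_at read 7.32, 6.97 and 7.18 in Tmbim1 KO hearts, against 7.34, 7.51 and 7.80 in Flox wild type hearts. The groups did not overlap, but the distance between them was 0.02, and the difference of -0.40 (SE 0.14, 95% interval -0.70 to -0.09) had an unadjusted p of 0.0169 and did not pass (limma adjusted p = 0.319). Without Flox wild type replicate 3, its highest array, the difference was -0.27 (SE 0.13, adjusted p = 0.605). The second probe set of Ctsf, 1449794_x_at, was in the range under the lower quartile of each array, with means of 2.12 in Tmbim1 KO and 2.05 in Flox wild type hearts. Its difference was 0.06, opposite in sign, with groups separated by 0.0157.

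**Figure D3:**
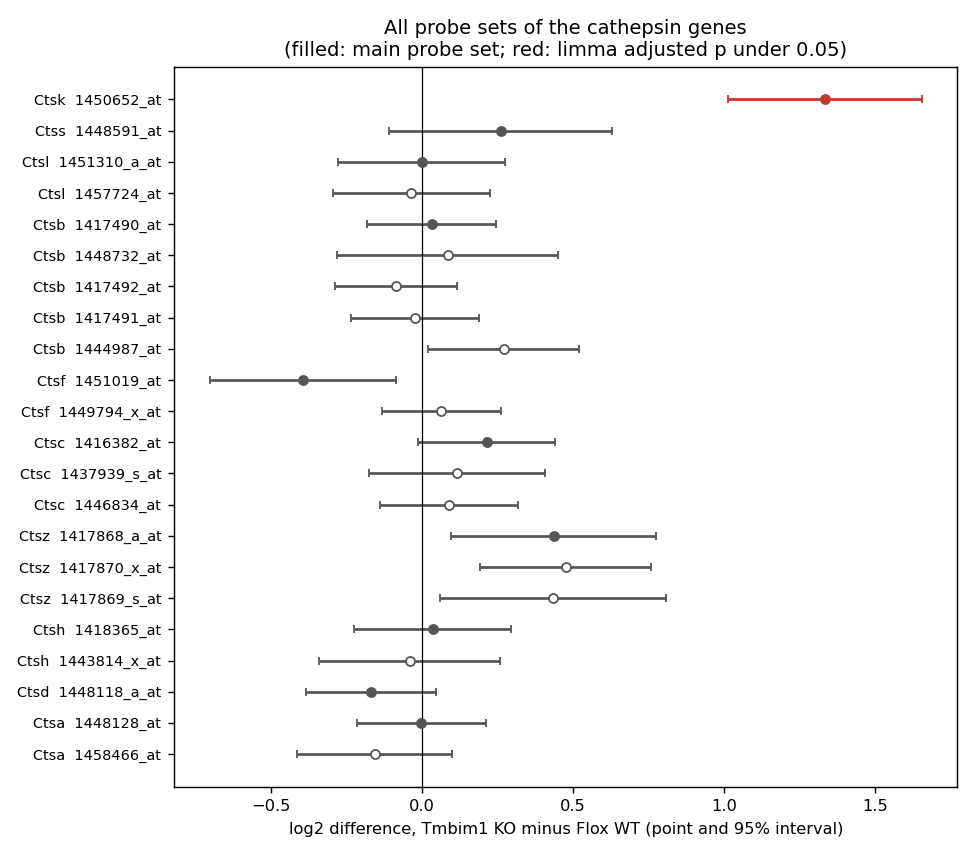
Log2 difference, Tmbim1 KO minus Flox wild type, of all 22 probe sets of the 10 cathepsin genes, with 95% intervals from limma; filled points are main probe sets, and red marks an adjusted p under 0.05. Ctsk stands at 1.33, and the other 21 lie between -0.40 and 0.47.

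Among the exopeptidases, which remove residues from the ends of proteins, Ctsz stood higher in every Tmbim1 KO heart without passing. Cathepsin Z, also called cathepsin X, takes single residues from the carboxyl end and is found mainly in myeloid cells. Its main probe set, 1417868_a_at, read 9.10, 9.22 and 9.18 in Tmbim1 KO hearts, against 8.83, 9.002 and 8.36 in Flox wild type hearts. The difference was 0.44 (SE 0.15, 95% interval 0.10 to 0.77, limma adjusted p = 0.319), or 1.35-fold. The other 2 probe sets gave 0.47 (1417870_x_at, adjusted p = 0.182) and 0.43 (1417869_s_at, adjusted p = 0.383), and in all 3 the groups were separated. These probe sets read the same transcript and are not independent, and the suffixes x and s mark probes that can match other transcripts. Flox wild type replicate 3 was the lowest array in all 3, and without it the main probe set was at 0.25 (SE 0.11, adjusted p = 0.563).

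Cathepsin C, a dipeptidyl peptidase that activates the serine proteases of granulocytes, mast cells and cytotoxic lymphocytes, showed a smaller shift. Ctsc read 8.43, 8.43 and 8.48 at 1416382_at in Tmbim1 KO hearts, against 8.12, 8.39 and 8.19 in Flox wild type hearts. The groups were 0.04 apart, and the difference of 0.21 (SE 0.10, 95% interval -0.01 to 0.44) did not pass (limma adjusted p = 0.506). The probe sets 1437939_s_at and 1446834_at were at 0.12 and 0.09, with overlapping groups. Of the 6 granule proteases that cathepsin C activates, 0 passed by limma, with 1 at an unadjusted p under 0.05, and the median was -0.05. Cma1, the mast cell chymase gene, was at -0.56 (SE 0.16, adjusted p = 0.218), and Gzma, Mcpt4 and Elane were at -0.20, -0.07 and -0.02. The Cma1 mean was 3.43 in Tmbim1 KO and 3.98 in Flox wild type hearts.

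Cathepsin H, an aminopeptidase, overlapped between genotypes at both of its probe sets. Ctsh read 7.82, 7.62 and 7.58 at 1418365_at in Tmbim1 KO hearts, against 7.45, 7.75 and 7.71 in Flox wild type hearts, a difference of 0.03 with an interval of -0.22 to 0.29. The second probe set, 1443814_x_at, was at -0.04 (SE 0.13, adjusted p = 0.961), and its lowest value, 6.64, was that of Tmbim1 KO replicate 3.

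The aspartic protease cathepsin D, a main enzyme of bulk protein breakdown in lysosomes, did not pass. Ctsd read 10.77, 10.62 and 10.61 at 1448118_a_at in Tmbim1 KO hearts, against 10.87, 10.86 and 10.77 in Flox wild type hearts. The groups overlapped narrowly, with Tmbim1 KO replicate 1 at 10.7725 and Flox wild type replicate 3 at 10.7699. The difference of -0.17 (SE 0.10, 95% interval -0.38 to 0.04) did not pass (limma adjusted p = 0.606).

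Cathepsin A, a serine carboxypeptidase that also protects neuraminidase 1 and beta-galactosidase in a shared complex, showed little difference at its main probe set. Ctsa read 8.74, 8.69 and 8.68 at 1448128_at in Tmbim1 KO hearts, against 8.75, 8.77 and 8.60 in Flox wild type hearts, with a 95% interval of -0.21 to 0.21. Its second probe set, 1458466_at, was at -0.16 (SE 0.11, adjusted p = 0.722). Partners of the complex were at 0.18 (Neu1, adjusted p = 0.575), 0.12 (Galns) and -0.09 (Glb1), and 0 of the 3 passed by limma (0 at an unadjusted p under 0.05).

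Over the 22 probe sets, 13 differences were positive and 9 negative, with a median of 0.05 and a median size of 0.10, where all probe sets had a median size of 0.10 (0.0951). At an unadjusted p under 0.05 there were 6 of 22, against 10.6% of all probe sets. The 6 belonged to 4 genes, with 3 of them from Ctsz. The groups did not overlap in 9 of 22, 7 higher and 2 lower, against 15.2% of all, 6.74% higher and 8.42% lower. By gene the 9 were 3 of Ctsz, 2 of Ctsb, 2 of Ctsf, 1 of Ctsc and 1 of Ctsk. The 2 of Ctsb went opposite ways, as did the 2 of Ctsf. At the main probe sets alone, 4 of 10 did not overlap, against 16.7% of all genes. In 15 of 22 probe sets the 95% interval lay wholly within 0.5 log2 units of zero on either side.

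**Figure D4:**
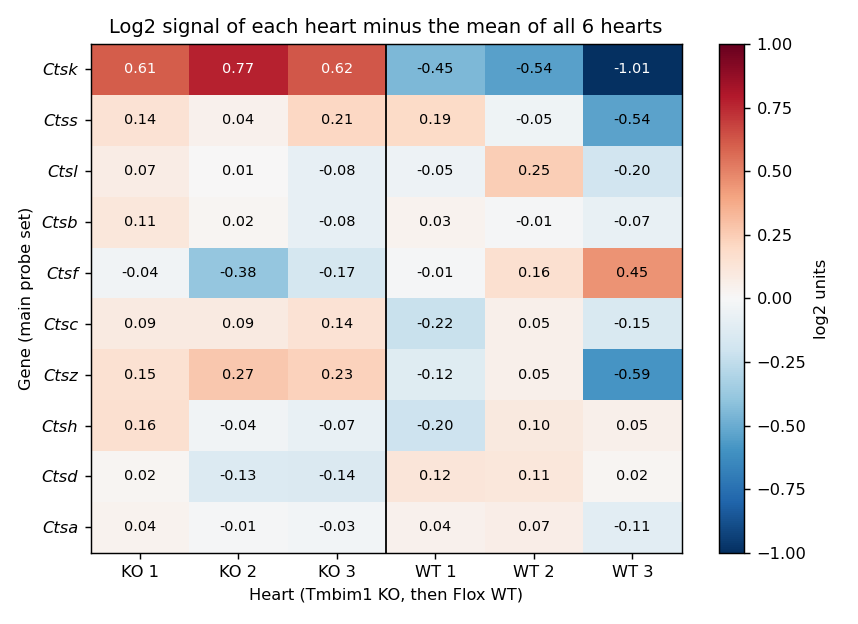
Log2 signal of each heart minus the mean of all 6 hearts for the 10 cathepsin genes at their main probe set, with Tmbim1 KO hearts left of the line and Flox wild type hearts right of it. Ctsk is positive in all 3 Tmbim1 KO hearts and negative in all 3 Flox wild type hearts, and Flox wild type replicate 3 is the lowest array for 5 of the 10 genes.

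Spread within a genotype was uneven. Flox wild type replicate 3 was the lowest of the 6 arrays for 5 of the 10 members, Ctsa, Ctsk, Ctsl, Ctss and Ctsz, and the highest for Ctsf. The largest within-group SDs at main probe sets were 0.37 for Ctss, 0.33 for Ctsz and 0.30 for Ctsk, all among Flox wild type hearts, while the Tmbim1 KO SDs of these genes were 0.08, 0.06 and 0.09. The difference in spread between genotypes was not tested.

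Other cathepsin genes gave no passing difference. Of Ctso, Ctsw, Ctse and Ctsg, 0 passed by limma and 0 had an unadjusted p under 0.05 at their main probe sets. Ctso, a widely expressed cysteine cathepsin, was at 0.15 (SE 0.10, adjusted p = 0.687), Ctsg at -0.08, Ctse at -0.05 and Ctsw at -0.06. The 9 rodent placental cathepsin genes, among them Ctsj, Cts7, Ctsq and Ctsr, also had 0 passing and 0 at that unadjusted level, with differences between -0.18 and 0.17. Of these 9 genes, 8 lay below the lower quartile on all arrays.

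Of 7 other lysosomal proteases, 0 passed by limma and 1 had an unadjusted p under 0.05. The median difference was 0.11, 6 of 7 were positive, and the groups overlapped in 6 of 7. That one was Lgmn, the asparagine-cutting protease legumain that processes several cathepsin precursors, which read 7.23, 7.10 and 7.04 in Tmbim1 KO hearts, against 6.86, 6.97 and 6.78 in Flox wild type hearts. Its groups did not overlap, and the difference of 0.25 (SE 0.10) had an adjusted p of 0.401. Scpep1, Cpq and Tpp1 were at 0.27, 0.18 and -0.12.

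Of 14 genes listed as cathepsin inhibitors or their relatives, 11 were measured, 8 with a positive difference and a median of 0.17. Whether each of them acts on the cathepsins described here was not tested. None passed by limma, and 1 had an unadjusted p under 0.05. That was Ahsg, the gene of the plasma protein fetuin A, which read 5.72, 4.52 and 3.97 in Tmbim1 KO hearts, against 3.66, 3.38 and 3.54 in Flox wild type hearts. Tmbim1 KO replicate 1 was highest, and the difference of 1.21 (SE 0.34) had an adjusted p of 0.207. Cstb, the cytosolic inhibitor stefin B, was at 0.23, the secreted cystatin gene Cst6 at 0.41 and the serpin gene Serpinb6a at 0.28, with adjusted p-values of 0.509 to 0.529 for these 3.

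At main probe sets, the sorting machinery that carries cathepsins to lysosomes was evenly divided, with 6 of 12 genes positive and a median of -0.01. At these probe sets 0 passed by limma and 0 had an unadjusted p under 0.05. Igf2r, the large mannose 6-phosphate receptor, was at -0.23 (SE 0.13, adjusted p = 0.605). The adaptor genes Gga3 and Ap1m1 were at -0.14 and -0.14, and the endocytic receptor gene Lrp1 was at 0.20.

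Among the 4 MiT/TFE transcription factor genes, which switch on lysosomal genes, Mitf had the smallest p-value. MITF drives Ctsk transcription in osteoclasts. Mitf read 7.72, 7.83 and 7.86 in Tmbim1 KO hearts, against 8.24, 8.37 and 8.77 in Flox wild type hearts. The groups did not overlap, with Mitf lower in all 3 Tmbim1 KO hearts, but the difference of -0.65 (SE 0.14, unadjusted p = 0.000755) did not pass after adjustment (limma adjusted p = 0.0950). A second probe set of Mitf, under the lower quartile on all arrays, was at -0.01. Tfeb was at -0.17, Tfe3 at 0.08 and Tfec at 0.31, so 0 of 4 passed by limma and 1 had an unadjusted p under 0.05.

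**Figure D5:**
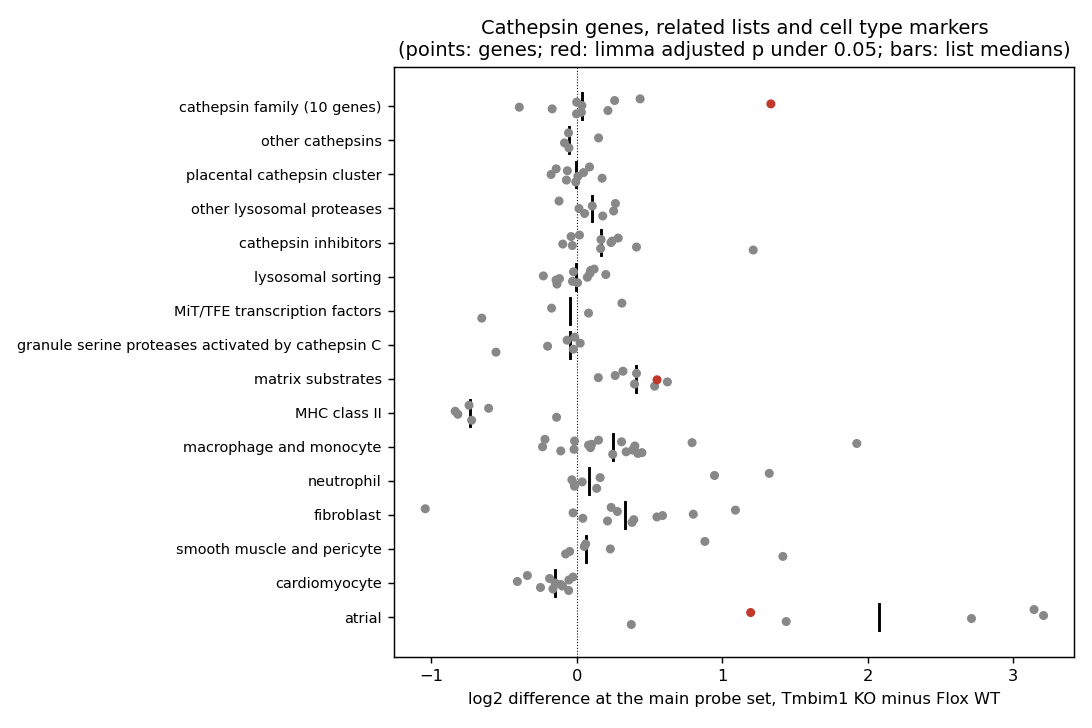
Log2 difference at the main probe set, Tmbim1 KO minus Flox wild type, for the cathepsin family, related gene lists and cell type markers; each point is a gene, red marks an adjusted p under 0.05, and bars are list medians. Matrix substrates have a median of 0.40 and MHC class II genes one of -0.73.

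Of 8 genes for matrix proteins that cathepsins can cut, 1 passed, where 0.549% of all genes passed at their main probe set. All 8 differences were positive, with a median of 0.40, and the groups overlapped in 5 of 8. Col3a1, a fibrillar collagen gene, rose by 0.55 (SE 0.10, limma adjusted p = 0.0481), with 11.75, 11.60 and 11.66 in Tmbim1 KO hearts, against 11.19, 11.12 and 11.04 in Flox wild type hearts. Without Flox wild type replicate 3 the median of the 8 was 0.20, and without Tmbim1 KO replicate 1 as well it was 0.13. The type I collagen genes Col1a1 and Col1a2 were at 0.40 (adjusted p = 0.128) and 0.62 (adjusted p = 0.410), and the proteoglycan gene Bgn was at 0.53 (adjusted p = 0.379).

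The MHC class II genes, whose invariant chain is cut by cathepsin S in antigen-presenting cells, lay the other way. The median over the 6 measured genes was -0.73 and all 6 were negative, but 0 passed by limma and 5 had an unadjusted p under 0.05, against 11.5% of all genes. H2-Aa read 9.09, 8.72 and 9.49 in Tmbim1 KO hearts, against 10.44, 9.73 and 9.59 in Flox wild type hearts. Its groups did not overlap, and it was at -0.82 (SE 0.24, adjusted p = 0.217). H2-Ab1 was at -0.84, H2-Eb1 at -0.74 and H2-DMa, a peptide-loading partner, at -0.61. Cd74, the invariant chain gene itself, was at -0.72 (SE 0.26, adjusted p = 0.335) and was singled out after its value was seen. Summed linear signals of the list were 1342, 1021 and 1741 in Tmbim1 KO hearts, against 3373, 1940 and 1847 in Flox wild type hearts. Flox wild type replicate 1 thus stood apart as the highest array, and the median without it was not computed. Without Flox wild type replicate 3 the median of the list was -0.89. Dendritic cell markers passed in 0 of 6 (0 at an unadjusted p under 0.05), with a median of -0.04 and summed linear signals of 111 to 114 in Tmbim1 KO and 111 to 120 in Flox wild type hearts.

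Markers of the cells that could carry these proteases differed as follows. Macrophage and monocyte markers were positive in 14 of 19 and negative in 5, with Lyve1 at 0.79 and Lgals3 at 1.92. Neither Lyve1 nor Lgals3 passed (limma adjusted p = 0.158 and 0.176). The Lgals3 groups were separated by only 0.04 log2 units, with Tmbim1 KO replicate 3 at 6.17 and Flox wild type replicate 1 at 6.14. Of the 12 fibroblast markers, 10 were positive and 2 negative, with Mfap5 at 0.80 and Scara5 at -1.04 (adjusted p = 0.323 and 0.185). Neutrophil markers passed by limma in 0 of 8, 2 having an unadjusted p under 0.05, with S100a9 at 1.32 (adjusted p = 0.0641) and S100a8 at 0.95. The neutrophil median was 0.09, with 5 markers positive and 3 negative. Smooth muscle and pericyte markers passed in 0 of 7, 2 at that unadjusted level, with Cnn1 at 1.42 and Tagln at 0.88, both highest in Tmbim1 KO replicate 1. The median of this list was 0.06, with 5 markers positive and 2 negative. Cardiomyocyte markers passed in 0 of 11, 2 at that unadjusted level. All 11 were negative, and their median was -0.15. Their summed linear signals were 81477 to 84140 in Tmbim1 KO and 88824 to 92332 in Flox wild type hearts. Mast cell, T and NK cell, B cell and endothelial markers had medians of 0.10, -0.07, 0.01 and -0.10, with 0 passing in each and 0, 1, 1 and 0 genes at that unadjusted level. Atrial markers had 1 of 6 higher, Nppa, at 1.19 (adjusted p = 0.0496), against 0.322% of all genes. All 6 were positive, with a median of 2.08 and a highest difference of 3.21, but the groups overlapped in 5 of the 6. Heat shock genes, a sign of tissue handling and stress, had 2 of 11 higher, Hspa1b and Hspa1a, against the same 0.322%, with 6 of 11 at an unadjusted p under 0.05 and a median of 0.27. Their summed linear signals did not overlap, at 18316 to 19201 in Tmbim1 KO and 15994 to 16633 in Flox wild type hearts. The part of any of these in the cathepsin values was not tested.

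For each member, the gene with the most similar profile over the 6 arrays was looked up by Pearson r. The candidates were 12750 other genes whose main probe set had a mean above percentile 40 of all probe sets. The number of genes with r above 0.95 differed between members, with 160 for Ctsz, 101 for Ctsk, 71 each for Ctsf and Ctss, and 6 to 42 for the other 6. The nearest gene to Ctsk was Golga5, a Golgi protein gene, at r = 0.995 over the 6 arrays. The Golga5 difference was only 0.14 (limma adjusted p = 0.649). The nearest gene to Ctsz was Vcan, a matrix proteoglycan gene, at r = 0.998. For Ctsf it was Gstm1, a glutathione transferase gene, at r = 0.999. The other nearest genes were 4930428B01Rik for Ctss, Plac8 for Ctsl, Tpi1 for Ctsb, Pa2g4 for Ctsc, Gmps for Ctsh, Nqo1 for Ctsd and Olfml1 for Ctsa, with r from 0.962 to 0.994. The highest of 12750 correlations over 6 arrays is high for almost any profile. Ctsa, whose values spanned only 0.18 log2 units, reached 0.992. The likenesses are descriptions, and shared regulation was not tested.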

How the data were processed

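RNA from 6 hearts, 3 Tmbim1 KO and 3 Flox wild type, was measured on Affymetrix arrays from 400 ng of total RNA each. The authors deposited 1 log2 signal for each probe set and array. RMA and limma stand in the submitters' processing notes; their versions are not given in the sources used here. The RMA step equalizes array distributions, which removes any overall shift between groups and can compress dim and bright differences. Of 38208 rows, 13 control probe sets were left out. The supplied platform annotation gave 34325 probe sets a single symbol, 62 several and 3808 none, and 0 symbols changed on lookup by Entrez identifier in GRCm38.p6.

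Genotypes were compared with lmFit and eBayes of limma 3.58.1 in R 4.3.3, two-sided, without covariates, with Benjamini-Hochberg adjustment over 38195 probe sets at 0.05. The code was tested on simulated data. Other fits used the replicate number as a block, array weights, or a robust or trended prior. Others took values centred on the median or quantile-normalized again, kept probe sets above percentile 40 of the mean, or only main probe sets. Arrays were also left out singly, and 2 at once. The family and its gene lists were chosen with earlier results of these data known, and the osteoclast list and the leave-out values of list medians were added after seeing the data. Named genes were all members, up to 4 genes per pathway list and 2 per marker list with the smallest p, and the most similar gene of each member. Arrays give no count depth, and their number, 3 in each group, limits the precision. Scan batches were not analysed here.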

Additional observations from a re-analysis of the deposited data

How the results depend on the processing

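Ctsk passed the threshold in all 15 alternatives, with a difference of 1.16 to 1.44, and it was the 1 cathepsin probe set that passed in each of them. Its adjusted p was 0.0111 with the replicate number as a block, and with single arrays left out it ran from 0.00542 to 0.0463. The other 21 probe sets passed in none of the alternatives that could be run for them. The filter gave no value for 3 (1437939_s_at and 1446834_at of Ctsc, 1449794_x_at of Ctsf), and 1 probe set per gene gave values for main probe sets only. The count of all probe sets past the threshold, 161, was 102 with 1 probe set per gene, 38 to 86 with single arrays left out, and 29 without Tmbim1 KO replicate 1 and Flox wild type replicate 3 together, where fewer arrays were fitted. It was 168 with the block. Same-numbered arrays correlated at 0.06, 0.14 and 0.02 in their deviations from the group means, Tmbim1 KO replicate 1 correlated best with Flox wild type replicate 3, and the numbers were not taken to pair the hearts.

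Differences near zero changed sign when arrays were left out, the cause not being tested. With single arrays left out, Ctsa 1448128_at ran from -0.057 to 0.032, Ctsb 1417490_at from -0.016 to 0.079, Ctsb 1448732_at from -0.072 to 0.178, Ctsb 1417491_at from -0.053 to 0.017, Ctsh 1418365_at from -0.059 to 0.093, Ctsh 1443814_x_at from -0.13 to 0.12, Ctsl 1451310_a_at from -0.098 to 0.123 and Ctsl 1457724_at from -0.109 to 0.077. Without both arrays named above, Ctsb was at -0.043 (1417490_at), -0.012 (1448732_at) and 0.0100 (1417491_at), and Ctsh 1418365_at at -0.0028. The matrix substrate median was 0.40 with all arrays, 0.20 without Flox wild type replicate 3 and 0.13 without both arrays.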

Other observations

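Because Ctsk is best known from osteoclasts, a list of 10 other osteoclast genes was added after its value was seen. None of the 10 passed by limma, 2 had an unadjusted p under 0.05, and the median difference was -0.02. Itgb3, a subunit of the vitronectin receptor, read 3.95, 3.87 and 4.11 in Tmbim1 KO hearts, against 3.85, 3.45 and 3.45 in Flox wild type hearts, a difference of 0.39 (SE 0.13, adjusted p = 0.286). Acp5, the tartrate-resistant acid phosphatase gene, was at 0.29 (SE 0.13, adjusted p = 0.447). The fusion gene Dcstamp was at -0.01, the osteoclast transcription factor gene Nfatc1 at 0.00 (0.00165), the RANK receptor gene Tnfrsf11a at 0.05 and the proton pump subunit gene Atp6v0d2 at -0.05. Calcr and Atp6v0d2 were under the lower quartile on all arrays. The summed linear signal of the list ran from 161 to 171 in Tmbim1 KO hearts and from 156 to 170 in Flox wild type hearts, overlapping ranges.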
